A study of Mus musculus with 36 samples.

Results

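Chromatin accessibility was examined at 7 genes for receptors that take up particles and ligands, namely the scavenger receptor genes Marco, Msr1 and Cd36, the mannose receptor gene Mrc1 and the Fc gamma receptor genes Fcgr1, Fcgr2b and Fcgr3. A peak was a member where it overlapped any of these gene bodies or the 10 kb to either side in mm10. This gave 122 of the 119751 peaks of the series: 9 at Marco, 26 at Msr1, 35 at Cd36, 18 at Mrc1, 9 at Fcgr1, 9 at Fcgr2b and 16 at Fcgr3. All but 1 of them, at Cd36, passed the filter on low counts, which left 121. The cells were dendritic cells grown with GM-CSF (15 ng/mL) from the bone marrow of female C57BL/6J mice aged 6 to 8 weeks, and all groups shared this culture and an overnight rest. They received no ligand (Ctrl) or ligands of pattern recognition receptors for 6 h. Of the 6 ligands given alone, the labels name P as PAM, L as LPS (bacterial lipopolysaccharide), H as HMW, and S as SeV. The group cG received 3',3'-cGAMP, a bacterial cyclic dinucleotide, and Z received zymosan, a yeast cell wall preparation, in depleted form. The 8 pairs are PL, PH, LH, PS, PcG, ScG, ZS and ZcG, and the 3 triplets are PLH, PScG and ZScG. Each of the 18 groups had 2 libraries, and the labels give neither the ligand doses nor whether the libraries of a group came from separate mice or cultures. The p-values therefore measure the spread between these libraries, which may be technical.

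Scavenger receptors are cell surface proteins that bind bacteria, modified lipoproteins and dying cells and carry them into the cell. MARCO and MSR1 are class A scavenger receptors of macrophages and related cells, and CD36 is a class B receptor that also takes up fatty acids and oxidised lipoproteins. MRC1, known as CD206, is a lectin that internalises glycans ending in mannose and is a marker of alternatively activated macrophages. Fc gamma receptors bind the constant part of IgG and so take up antibody-coated particles. FCGR1 is the high-affinity activating receptor, FCGR3 is a low-affinity activating receptor that signals through a shared chain, and FCGR2B is the inhibitory receptor. ATAC-seq uses a transposase that inserts adapters where DNA is not covered by nucleosomes, so a peak's count reports how open that stretch is, not how much the gene is transcribed. In a bulk sample, opening in fewer cells and weaker opening in every cell cannot be told apart.

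The start regions of 6 of the 7 genes are shown because their accessibility is followed below. They are RefSeq promoters of GRCm38.p6, 250 bases before to 50 after the start, 5' to 3' on the strand of the gene. Capitals mark every match on either strand of the NF-kappaB motif, which is GGG, any 5 bases and CC. A RefSeq entry was matched for these 6 genes.
Marco, chr1:120504975-120505274, - strand: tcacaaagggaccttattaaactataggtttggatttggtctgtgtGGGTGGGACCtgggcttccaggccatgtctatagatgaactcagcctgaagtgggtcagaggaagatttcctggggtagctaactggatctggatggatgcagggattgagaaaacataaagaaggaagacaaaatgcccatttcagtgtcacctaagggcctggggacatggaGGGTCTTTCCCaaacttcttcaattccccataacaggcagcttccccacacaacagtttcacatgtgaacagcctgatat
Cd36, chr5:17835847-17836146, - strand: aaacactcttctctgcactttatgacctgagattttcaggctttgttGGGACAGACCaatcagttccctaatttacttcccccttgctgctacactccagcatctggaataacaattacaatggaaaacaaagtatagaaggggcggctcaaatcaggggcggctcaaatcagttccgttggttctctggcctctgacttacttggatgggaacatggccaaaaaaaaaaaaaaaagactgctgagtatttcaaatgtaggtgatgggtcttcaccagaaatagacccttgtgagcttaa
Mrc1, chr2:14229164-14229463, + strand: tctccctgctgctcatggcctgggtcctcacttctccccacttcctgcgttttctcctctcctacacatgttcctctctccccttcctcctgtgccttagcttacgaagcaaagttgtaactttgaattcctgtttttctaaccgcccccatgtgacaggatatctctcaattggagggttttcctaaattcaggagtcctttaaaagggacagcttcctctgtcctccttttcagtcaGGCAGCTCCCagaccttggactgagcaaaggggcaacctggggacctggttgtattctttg
Fcgr1, chr3:96293920-96294219, - strand: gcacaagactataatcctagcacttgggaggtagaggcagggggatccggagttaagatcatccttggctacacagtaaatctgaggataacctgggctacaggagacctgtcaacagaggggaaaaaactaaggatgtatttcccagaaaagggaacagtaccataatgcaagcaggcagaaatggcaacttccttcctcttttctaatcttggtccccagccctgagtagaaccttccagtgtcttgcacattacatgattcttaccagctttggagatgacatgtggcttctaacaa
Fcgr2b, chr1:170976022-170976321, - strand: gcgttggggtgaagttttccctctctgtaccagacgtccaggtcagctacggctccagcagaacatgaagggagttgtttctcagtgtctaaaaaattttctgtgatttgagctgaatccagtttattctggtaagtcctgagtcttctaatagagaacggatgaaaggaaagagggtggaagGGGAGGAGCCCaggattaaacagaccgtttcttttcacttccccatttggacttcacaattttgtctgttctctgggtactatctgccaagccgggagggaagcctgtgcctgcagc
Fcgr3, chr1:171059354-171059653, - strand: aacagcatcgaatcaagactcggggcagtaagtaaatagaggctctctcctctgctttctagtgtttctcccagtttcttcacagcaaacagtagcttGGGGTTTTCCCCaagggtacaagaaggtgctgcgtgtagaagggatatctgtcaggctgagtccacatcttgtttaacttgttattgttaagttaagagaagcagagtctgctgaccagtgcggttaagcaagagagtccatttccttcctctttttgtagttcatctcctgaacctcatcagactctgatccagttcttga
Of 27025 promoters of this length, 50.4% hold that motif. Marco has 3 matches, the last 2 of them overlapping, Cd36 and Mrc1 have 1 each, Fcgr2b has 2 overlapping matches, Fcgr3 has 4 overlapping matches and Fcgr1 has 0. AP-1 (TGANTCA, in 7.93% of promoters), the interferon-stimulated element (GAAA, any 2 bases and GAAA, 3.49%) and PU.1 (GAGGAAGT, 3.28%) have 0 matches in these 6 windows. A match is a run of letters and not a measured binding site.

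All counts of a library together ran from 19097027 to 39977088, and 8181254 to 21985891 of them lay outside the mitochondrial genome. CPM below is the count per 1000000 of the latter after scaling by the trimmed mean of M values (TMM). The 8 marker genes of myeloid and dendritic cells all had peaks, with a summed level of 424 to 516 CPM over 75 peaks in the groups. Markers of other cells summed to 6.34 to 11.2 CPM for T cells (4 peaks at 2 of 3 genes, Cd8a without), 9.98 to 19.0 for B cells (6 peaks at Pax5 and Cd79a), 7.25 to 18.9 for neutrophils (1 peak, at S100a8 alone of 3 genes), 9.43 to 15.1 for mast cells (7 peaks, at Kit alone of 2) and 0.572 to 1.88 for the hepatocyte gene Alb (1 peak). Since the lists differ in peaks, their sums do not rank them, and the S100a8 peak alone read 18.9 CPM in Ctrl. Summed B cell, neutrophil and hepatocyte markers had their highest value in Ctrl, and their part in the differences below was not tested. The mitochondrial share of counts was 57.3% to 63.1% in the 10 libraries of Ctrl, Z, ZcG, ScG and ZScG and 44.1% to 58.1% in the 26 libraries of the other 13 groups, of which ZS 1 at 58.1% lies within the range of the first set. For those 13 stimulations the share and the ligand cannot be told apart in a comparison with Ctrl, whereas Z, ZcG, ScG and ZScG lie nearer to Ctrl by group mean. Within this set of higher mitochondrial share, Ctrl stood at 61.9% and 60.1%. ScG 1 at 57.3% and the ZScG libraries at 57.9% and 58.7% lay below both. All 17 comparisons with Ctrl use the same 2 control libraries.

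Most of these loci changed. In a test across all 18 groups, 90 of the 121 peaks (74.4%) passed an adjusted p of 0.05 in edgeR's quasi-likelihood test, against 62.5% of all 119464 tested peaks. Against Ctrl, 38 peaks were higher in at least 1 stimulation and 52 lower, 4 of them counted in both, and 35 were never called. That is 31.4% higher and 43% lower, against 35.0% and 34.1% of all tested peaks, so the higher share lay below the background and the lower share above it. Cd36 and Mrc1 held most of the lower calls, with 156 of 578 and 75 of 306 possible calls over the 17 stimulations. Fcgr1 and Fcgr3 had 30 of 153 and 38 of 272 possible calls higher, and 6 lower each. At Fcgr3, 12 and 6 of the higher calls were at a pair of long peaks over transfer RNA genes, described below. Marco had 12 higher and 26 lower calls of 153, Msr1 27 and 58 of 442, and Fcgr2b 16 and 12 of 153. For comparison, the share of all tested peaks called in a single stimulation ran from 4.16% to 19.0% higher and from 1.75% to 18.1% lower. Scaling by total counts, which moves the median of all peaks by -0.04 to 0.45 on the log2 scale against -0.04 to 0.04 with TMM, changed this balance from 177 higher and 339 lower calls to 350 and 231. It left Cd36 with 114 lower and 68 higher calls and Mrc1 with 55 and 34, but gave Marco 19 higher and 15 lower and Msr1 69 higher and 34 lower.

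**Figure D1:**
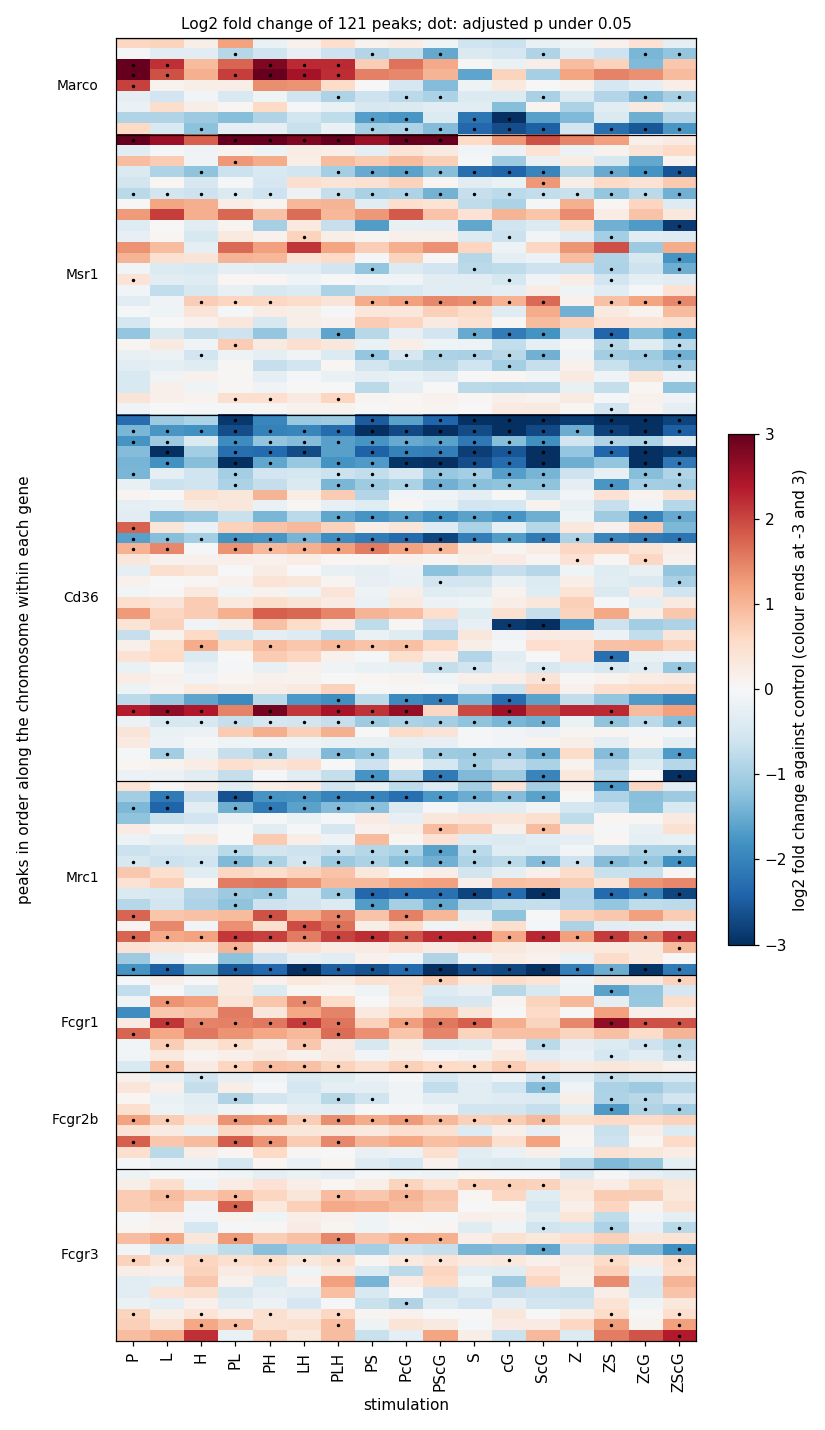
Log2 fold change against Ctrl (colour, red higher and blue lower) of the 121 tested peaks (rows, grouped by gene and ordered along the chromosome) in 17 stimulations (columns), with a dot where the adjusted p is under 0.05. Cd36 and Mrc1 hold rows that are blue in every column, and 1 Mrc1 row is red in every column.

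The balance depended on the ligand. P gave 15 higher and 8 lower member peaks, 12.4% and 6.61% of the 121, against 11.1% and 9.45% of all tested peaks. L gave 13 and 12 (10.7% and 9.92%, against 11.2% and 11.1%), and H gave 8 and 9 (6.61% and 7.44%, against 5.21% and 5.46%). These 3 single ligands stood near the background in both directions under TMM. Under total counts the splits were 27 and 5 for P, 32 and 6 for L and 13 and 3 for H, and all peaks moved with them. The shares were then 22.3% higher and 4.13% lower for P (19.4% and 2.86% of all peaks), 26.4% and 4.96% for L (26.1% and 3.29%) and 10.7% and 2.48% for H (11.1% and 1.01%). S gave 6 higher and 25 lower peaks, 4.96% and 20.7%, against 14.1% and 13.8% of all peaks. For cG there were 7 and 26 (5.79% and 21.5%, against 11.6% and 11.6%). Lower calls thus made up a larger share of the members than of all peaks with S and cG, and higher calls a smaller share. Z gave 2 higher and 5 lower peaks, 1.65% and 4.13%, against 4.16% and 1.75%.

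Combinations with S or cG showed the same lean. PS gave 6 higher and 27 lower peaks (4.96% and 22.3%, against 17.3% and 16.2%), ScG gave 7 and 29 (5.79% and 24.0%, against 14.4% and 13.3%) and ZS gave 7 and 30 (5.79% and 24.8%, against 14.4% and 14.0%). ZcG gave 4 and 24 (3.31% and 19.8%, against 11.4% and 10.2%). PcG was less lopsided, with 14 and 21 (11.6% and 17.4%, against 16.8% and 16.2%). The triplets with both gave 11 and 27 for PScG (9.09% and 22.3%, against 19.0% and 18.1%) and 9 and 34 for ZScG (7.44% and 28.1%, against 16.2% and 16.1%). The combinations of P, L and H stayed near the background under TMM, with 19 and 19 for PL (15.7% each, against 13.8% and 13.5%) and 16 and 13 for PH (13.2% and 10.7%, against 13.6% and 12.8%). LH gave 13 and 9 (10.7% and 7.44%, against 11.3% and 10.5%), and PLH gave 20 and 21 (16.5% and 17.4%, against 14.9% and 14.7%). Under total counts their splits were 32 and 9 for PL, 32 and 8 for PH, 31 and 7 for LH and 37 and 8 for PLH, with 25.6% to 30.6% of members higher and 5.79% to 7.44% lower, against 19.4% to 25.3% and 3.78% to 6.18% of all peaks. Under the same scaling S gave 15 higher and 16 lower, cG 16 and 18, PS 24 and 15, PcG 36 and 11, PScG 21 and 20, ZS 11 and 19, ScG 8 and 23, ZcG 4 and 27 and ZScG 10 and 31. Lower calls thus outnumbered higher ones clearly in ScG, ZcG, ZScG and ZS, were close to them in number in S, cG and PScG and were fewer in PS and PcG. In each of these 9 stimulations the share of members called lower under total counts was above that of all peaks, from 9.09% against 6.5% in PcG to 25.6% against 14.0% in ZScG. In either direction together, the shares of members and of all peaks called were 19% and 20.5% in P, 20.7% and 22.3% in L, 14% and 10.7% in H, 25.6% and 27.9% in S, 27.3% and 23.3% in cG and 5.79% and 5.91% in Z. They were 31.4% and 27.3% in PL, 24% and 26.3% in PH, 18.2% and 21.8% in LH, 27.3% and 33.4% in PS, 28.9% and 32.9% in PcG, 29.8% and 27.7% in ScG, 30.6% and 28.3% in ZS and 23.1% and 21.6% in ZcG for the pairs, and 33.9% and 29.7% in PLH, 31.4% and 37.1% in PScG and 35.5% and 32.3% in ZScG for the triplets.

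**Figure D2:**
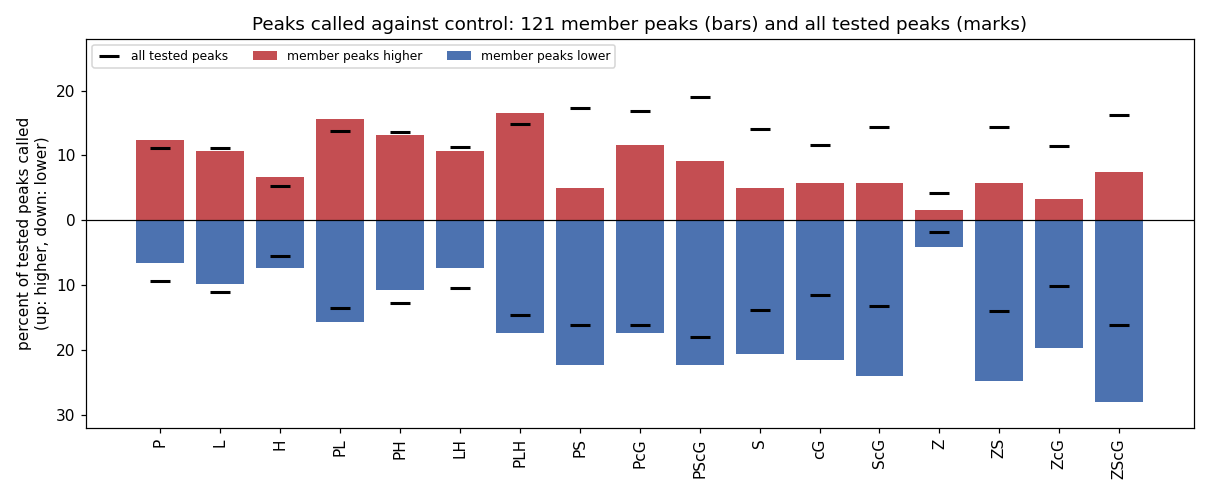
Percent of the 121 member peaks called higher (bars up) and lower (bars down) against Ctrl in each stimulation, with the same percent over all 119464 tested peaks as horizontal marks. With S the bars reach 4.96% up and 20.7% down and the marks stand at 14.1% and 13.8%.

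Marco lost accessibility at its start with S, cG and H, while P gave no call there. The start peak (chr1:120504572-120505259, centre 310 bp inside the gene) read 6.12 and 6.85 CPM in Ctrl, 8.93 and 10.6 with P, 5.72 and 3.88 with L and 2.89 and 5.67 with Z. It read 2.22 and 3.36 CPM with H, 1.44 and 1.11 with S and 0.875 and 1.15 with cG. Both libraries of H, S and cG lay below both control libraries, and both P libraries lay above them. The log2 fold change (± SE throughout) was -2.35 ± 0.354 for S (adjusted p 1.4e-08), -2.66 ± 0.377 for cG (2.12e-09) and -1.24 ± 0.326 for H (0.0051), while P at 0.59 ± 0.292 was not called. Without P, the combinations read 0.372 and 2.08 CPM in ScG, 1.4 and 1.29 in ZS, 1.21 and 1.0 in ZcG, 1.68 and 2.21 in ZScG and 5.38 and 2.62 in LH. With P they read 2.7 and 3.76 in PS, 3.42 and 3.32 in PcG, 2.69 and 2.56 in PScG, 5.17 and 5.6 in PL, 5.79 and 5.22 in PH and 6.52 and 4.79 in PLH. ScG, ZS, ZcG and ZScG had log2 fold changes of -2.55 to -1.75, and all 4 passed the test. PS, PcG and PScG fell less, by 0.99 ± 0.307, 0.95 ± 0.31 and 1.3 ± 0.331. The 10 calls at this peak include ScG, ZcG and ZScG, which lie with Ctrl in the set of higher mitochondrial share. Leaving out 1 library ended the calls in H (without Ctrl 2 or H 1, range -1.54 to -0.95), PS (without Ctrl 2 or PS 1, -1.25 to -0.79) and PcG (without Ctrl 2, PcG 1 or PcG 2, -1.02 to -0.86). Total counts ended those in PS (-0.58) and PcG (-0.52).

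Downstream of Marco, past the end of the gene, a pair of adjacent peaks rose with P, with L and in combinations of P, L and H. The pair was chosen after its values were seen. The nearer one (chr1:120472755-120473532, 1006 bp from the gene body) read 0.219 and 0.386 CPM in Ctrl, 3.36 and 4.69 with P, 1.55 and 0.863 with L, 1.64 and 4.04 with PH, 2.47 and 1.03 with LH, 1.15 and 1.53 with PL and 1.24 and 1.7 with PLH. It read 0.131 and 0.0615 CPM with S, 0.279 and 0.0 with ScG and 0.716 and 0.287 with cG. The mean of P was the highest of all groups and those of S and ScG the lowest. It rose with P by 3.68 ± 0.661 (adjusted p 2.91e-06) and with PH by 3.19 ± 0.67, and passed the test in 6 stimulations. The control libraries held only 2 and 4 counts at this peak, so the size of these folds is imprecise. The calls in L, PL, LH and PLH each ended without Ctrl 1 or without a stimulated library, at log2 fold changes of 1.46 to 2.98. Beside it, a peak (chr1:120471982-120472617) read 0.219 and 0.386 CPM in Ctrl, also from 2 and 4 counts, and 2.21 and 4.98 with P. With P it rose by 3.52 ± 0.696. It passed in 5 stimulations, of which the calls in L, LH and PLH ended without Ctrl 1 among others. The Marco peak with the highest mean CPM (chr1:120467252-120467756, 6782 bp downstream) had 0 higher and 6 lower calls, from 6.12 and 5.11 CPM in Ctrl to 1.71 and 2.13 with PScG (-1.53 ± 0.339). Of those 6 calls, PL, PS, ScG and ZScG ended when 1 library was left out and PL, PS and ScG under total counts. The other Marco peaks lay between 0.525 and 3.49 CPM on average. Among them, 1 inside the gene was lower in 6 stimulations and 1 in 4, 1 downstream was higher with P alone, and 2 were never called.

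**Figure D3:**
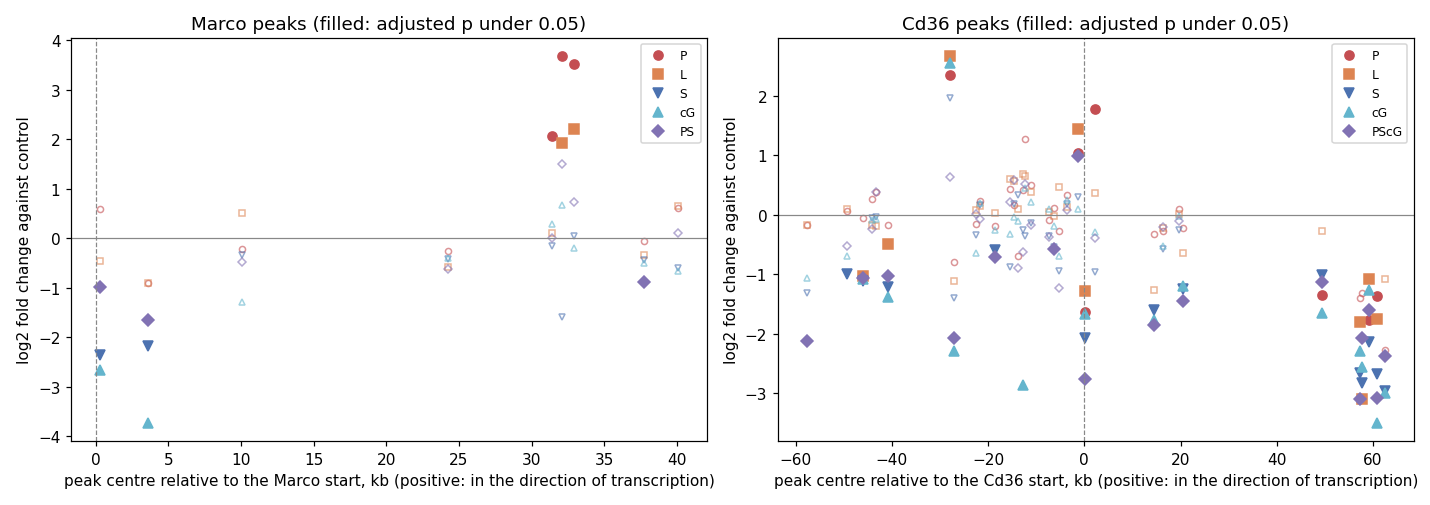
Log2 fold change against Ctrl by distance of the peak centre from the gene start (kb, positive in the direction of transcription) at Marco (left) and Cd36 (right) for 5 stimulations each. Filled symbols have an adjusted p under 0.05. At the Marco start S and cG stand at -2.35 and -2.66, while P stands at 3.68 and 3.52 at a pair of peaks past the gene end. At each of that pair the control libraries hold 2 and 4 counts.

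Msr1 showed peaks that moved in opposite directions inside the gene. The RefSeq tables used here hold no promoter for Msr1 and list no strand for it, so its peaks are given by position only. The peak with the lowest p (chr8:39635315-39636501) read 5.57 and 4.73 CPM in Ctrl, 4.35 and 3.76 with P, 5.09 and 4.48 with L, 6.56 and 4.72 with Z and 8.7 and 8.36 with H. It read 14.2 and 12.9 CPM with S, 11.2 and 9.96 with cG, 14.1 and 19.4 with ScG, 9.72 and 18.3 with ZScG, 9.03 and 9.68 with ZS and 11.6 and 11.9 with ZcG. With P added to them, it read 10.7 and 11.4 in PS, 12.5 and 11.3 in PcG and 14.3 and 13.4 in PScG. Every library with S or cG lay above both control libraries, and the P libraries lay below them. It rose in 12 stimulations, by 1.4 ± 0.219 with S (adjusted p 4.58e-08), 1.04 ± 0.226 with cG and 1.7 ± 0.222 with ScG (6.56e-11). P and L stood at -0.34 ± 0.253 and -0.11 ± 0.242 and were not called. All 12 calls held under total counts. Leaving out 1 library ended those in H, PL, PH (range 0.5 to 0.85 over the 3) and ZS (without Ctrl 2, 0.75 to 0.98).

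The other named Msr1 peaks did not rise with S or cG. The peak over the higher-coordinate end of the gene (chr8:39642308-39643253) read 18.5 and 15.0 CPM in Ctrl, 8.24 and 8.73 with S, 8.75 and 9.96 with cG, 5.21 and 7.21 with ScG and 12.4 and 16.2 with P. It fell in 10 stimulations, with -0.97 ± 0.187 for S, -0.83 ± 0.188 for cG and -1.43 ± 0.207 for ScG (adjusted p 3.05e-09). The S, cG and ScG libraries lay below both control libraries. The calls in H (-0.58) and PcG (-0.5) ended without Ctrl 1, without a stimulated library and under total counts (-0.3 and -0.07). Msr1's peak of highest mean CPM (chr8:39619536-39620957) stayed within a narrower range, from 25.2 and 24.0 CPM in Ctrl to 38.3 and 27.0 with P (0.41 ± 0.139, a call that ended without Ctrl 1, Ctrl 2 or P 1), 17.2 and 16.9 with cG (-0.53 ± 0.147) and 16.9 and 16.1 with ZS (-0.58 ± 0.152). Under total counts the cG and ZS calls there ended.

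A further pair of Msr1 peaks was chosen after their values were seen. One intragenic peak (chr8:39594529-39595436) read 30.6 and 24.6 CPM in Ctrl and 10.1 to 25.5 in the 34 stimulated libraries, where 1 LH library lay above the lower control library. It fell in 16 stimulations, most in ZScG (-1.44 ± 0.17) and PScG (-1.41 ± 0.159). LH at -0.18 ± 0.145 was not called. Under total counts 10 of the 16 calls held, and 11 held whichever library was left out. Another (chr8:39565481-39565808) held 2 counts over both control libraries, so its ratio is given with an exact interval that covers counting error only. Against Ctrl, P gave 34 counts, a ratio of 12.3 (3.16 to 106), PH gave 56 counts, a ratio of 16.6 (4.38 to 140), and S gave 5 counts, a ratio of 1.55 (0.253 to 16.2). ZcG and ZScG gave 2 counts each. The 7 calls at this peak were all in stimulations with P or in LH, and only that in PH held whichever library was left out. Of the 26 Msr1 peaks, 9 were never called, 8 were higher and 12 lower in at least 1 stimulation, and 3 of these were both.

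Cd36 lost accessibility at its start with every ligand. The start peak (chr5:17835523-17836243, centre 214 bp inside the gene) read 14.2 and 15.0 CPM in Ctrl. With single ligands it read 4.43 and 4.98 with P, 5.51 and 6.47 with L, 7.5 and 6.89 with H, 4.06 and 2.83 with S, 3.58 and 5.52 with cG and 7.35 and 7.97 with Z. The pairs ranged from 2.23 CPM in a ZcG library to 6.99 in an LH library, and the triplets from 1.99 in a PScG library to 4.24 in a PLH library. The highest of the 34 stimulated libraries, at 7.97 CPM, thus stood well under the lower control library. The log2 fold change ran from -0.93 ± 0.262 with Z (adjusted p 0.015) through -1.63 ± 0.263 with P, -2.08 ± 0.268 with S and -2.13 ± 0.286 with ScG to -2.76 ± 0.294 with PScG (1.45e-15). It passed the test in all 17 stimulations, which share the control libraries. Of the members 3 peaks were called lower in all 17 (2.48%), against 0.46% of all tested peaks. All 17 calls held under total counts. Leaving out Ctrl 1, Ctrl 2, Z 1 or Z 2 ended the call in Z (-0.99 to -0.87) and no library ended another.

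Further Cd36 peaks on both sides of the start fell with it. The peak with the lowest p has its centre at -40851 bp from that start, inside the gene span of the table (chr5:17876590-17877306). It read 25.9 and 23.2 CPM in Ctrl, 10.4 and 10.8 with S, 7.08 and 11.6 with cG, 9.39 and 8.3 with ScG, 21.2 and 22.3 with P and 21.3 and 21.3 with Z. It fell in 15 stimulations, with log2 fold changes of -1.21 ± 0.164 with S and -1.38 ± 0.169 with cG, while P (-0.17 ± 0.156) and Z (-0.2 ± 0.162) were not called. The S, cG and ScG libraries lay under 12 CPM and those of P and Z above 21. Total counts kept 9 of these calls and ended those in L, H, PL, PH, LH and PLH, and leaving out 1 library ended those in L, H, PH and LH. At Cd36 the peak of highest mean CPM (chr5:17854115-17855196) fell in 6 stimulations, from 54.3 and 47.8 CPM in Ctrl to 29.1 and 38.0 with S (-0.6 ± 0.113) and 23.1 and 23.0 with ZScG (-1.14 ± 0.124, adjusted p 7.87e-15). Of these calls ZS and ZcG ended when 1 library was left out, and S and ZS under total counts.

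Beyond the 3' end of Cd36, 5 peaks lay within 10 kb of the gene, and each fell in 9 to 17 stimulations. The one called in all 17 (chr5:17774590-17776046, chosen after its values were seen) read 13.5 and 10.6 CPM in Ctrl, 3.81 and 5.49 with P, 1.37 and 2.34 with S, 1.27 and 0.86 with cG and 3.28 and 5.25 with Z. Its log2 fold changes ran from -1.37 ± 0.334 with P to -3.52 ± 0.431 with ZcG, and all 17 held under total counts. The call in Z ended without Ctrl 1 or Z 1 (-1.88 to -1.2). A Cd36 peak next to the start rose instead (chr5:17837106-17837872, centre at -1392 bp from it, chosen after its values were seen). It read 1.75 and 2.8 CPM in Ctrl, 4.35 and 5.13 with P, 7.07 and 5.5 with L and 7.15 and 6.54 with PS, against 3.27 and 2.4 with S, 1.91 and 2.94 with cG and 2.03 and 2.41 with H. It rose in 9 stimulations, namely P, L and every combination with either of them, by 1.44 ± 0.321 with L and 1.57 ± 0.316 with PS. Calls in L, PL and PS held whichever library was left out, and those in P, PH, LH, PcG, PLH and PScG ended without Ctrl 1, at 0.69 to 1.63 over the fits. Of the 34 tested Cd36 peaks, 18 were lower and 6 higher in at least 1 stimulation, with none in both, and 10 were never called.

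**Figure D4:**
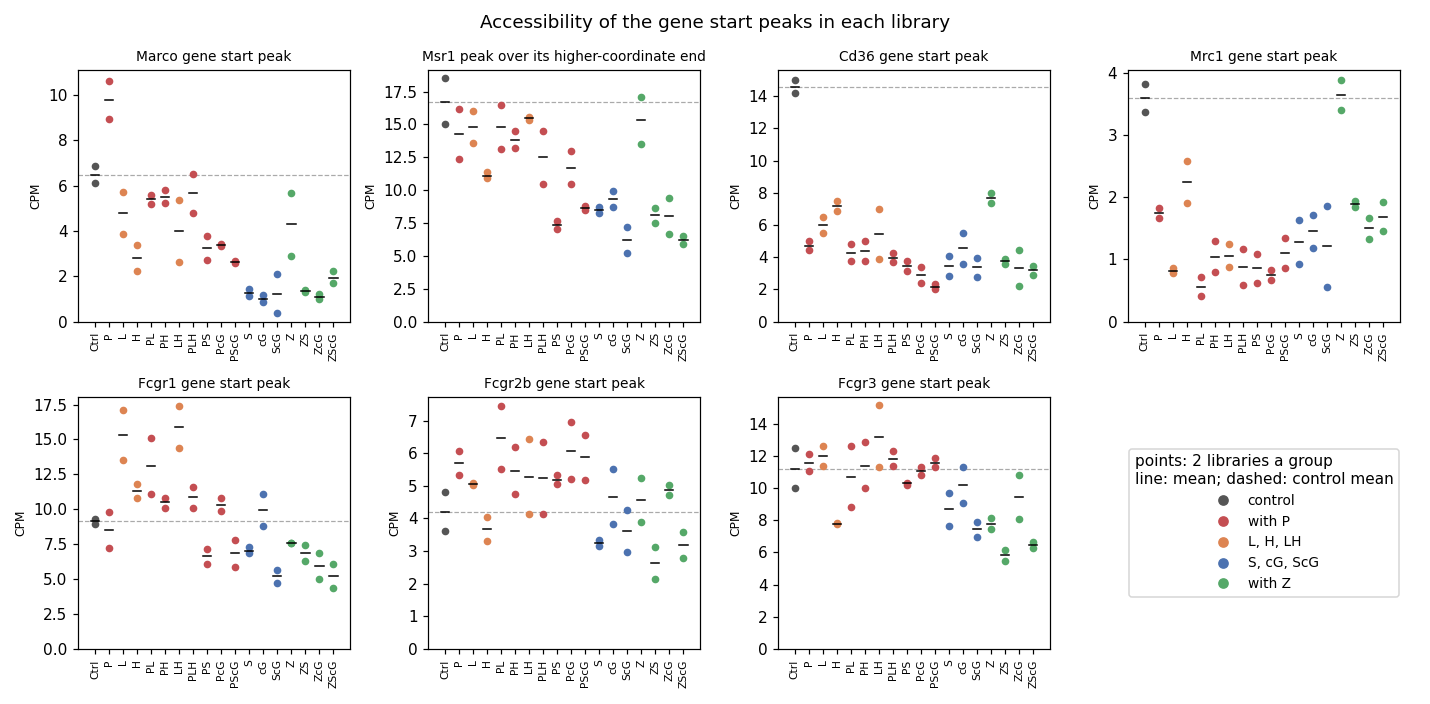
CPM of the peak over each gene start (for Msr1 over its higher-coordinate end) in every library. Points are the 2 libraries of a group, solid lines their mean and the dashed line the Ctrl mean. At Cd36 the control libraries (14.2 and 15.0) stand above all others, and at Marco the S and cG libraries stand between 0.875 and 1.44.

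Mrc1 had mostly lower calls, at its start and deeper in the gene, and 1 intragenic peak that rose in every stimulation. The start peak (chr2:14229071-14229433) read 3.82 and 3.38 CPM in Ctrl, 3.41 and 3.88 with Z, 1.83 and 1.66 with P, 1.91 and 2.59 with H, 0.777 and 0.863 with L, 1.64 and 0.923 with S and 1.19 and 1.72 with cG. With L it was lowest among the single ligands (-2.11 ± 0.49, adjusted p 0.00038), and PL read 0.718 and 0.407 CPM (-2.61 ± 0.539). Z stood at 0.02 ± 0.446, and P (-1.04 ± 0.459) and H (-0.69 ± 0.449) were not called. The peak was lower in 11 stimulations. The calls in S, cG, PH, LH, ScG and PScG ended when 1 of the libraries compared was left out, at -2.67 to -0.95 over these fits, and those in S (-1.12) and cG (-0.95) also under total counts.

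The Mrc1 peak with the highest mean CPM fell in all 17 stimulations (chr2:14249786-14250613, centre 20785 bp past the start). It read 21.1 and 23.6 CPM in Ctrl, 17.3 and 14.8 with P, 14.2 and 14.4 with L, 16.5 and 12.8 with H, 12.4 and 11.2 with S, 11.8 and 13.5 with cG and 14.4 and 14.5 with Z. Among combinations, it read from 5.59 CPM in a ZScG library to 17.5 in an LH library. Both control libraries lay above all 34 others. The log2 fold change was -0.48 ± 0.171 with P, -0.92 ± 0.174 with S and -1.81 ± 0.205 with ZScG (adjusted p 7e-14). Total counts ended the calls in P (-0.16), L (-0.22), H (-0.32) and LH (-0.25). Leaving out 1 library ended those in P, L, H, Z and LH (-0.81 to -0.35), in each case without Ctrl 2 among others.

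A peak deeper in Mrc1 rose in all 17 stimulations (chr2:14279112-14279644, centre 49964 bp past the start, chosen after its values were seen). It read 1.53 and 1.93 CPM in Ctrl, 7.17 and 4.55 with P, 3.67 and 3.94 with L, 5.34 and 2.5 with H, 8.24 and 8.24 with S, 3.5 and 4.3 with cG and 5.12 and 3.25 with Z. The combinations read 3.62 CPM in a ZcG library to 10.4 in an ScG library. Both control libraries lay below all others. It rose by 2.24 ± 0.311 with S (adjusted p 7.45e-10), 1.74 ± 0.325 with P and 1.13 ± 0.337 with L. All 17 calls held under total counts, and those in L, H, cG, Z and ZcG ended when 1 library was left out (0.52 to 1.86). Of all tested peaks, 1.03% were called higher in all 17, and of the members this peak alone.

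The peak with the lowest p at Mrc1 (chr2:14262082-14262533) lies 1001 bp from Mir511, a microRNA gene inside Mrc1. It read 6.45 and 5.21 CPM in Ctrl, 4.5 and 4.04 with P, 4.24 and 4.04 with L, 0.523 and 1.17 with S, 1.19 and 1.15 with cG and 0.465 and 0.328 with ScG. The S, cG and ScG libraries all lay below 1.2 CPM. It fell, at -2.76 ± 0.418 with S, -2.31 ± 0.41 with cG and -3.83 ± 0.515 with ScG (adjusted p 2.29e-10), while P, L, H, Z and LH were not called. The calls in PL, PH and PLH ended under total counts (-0.76, -0.8 and -0.76) and without Ctrl 1. A peak 8411 bp beyond the gene (chr2:14340434-14340718, chosen after its values were seen) fell in 16 stimulations, from 5.14 and 2.99 CPM in Ctrl to 0.371 and 0.317 with LH (-3.51 ± 0.656). Of these calls 14 held under total counts and 10 whichever library was left out. Of the 18 Mrc1 peaks, 8 were lower and 5 higher in at least 1 stimulation, with none in both, and 5 were never called.

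**Figure D5:**
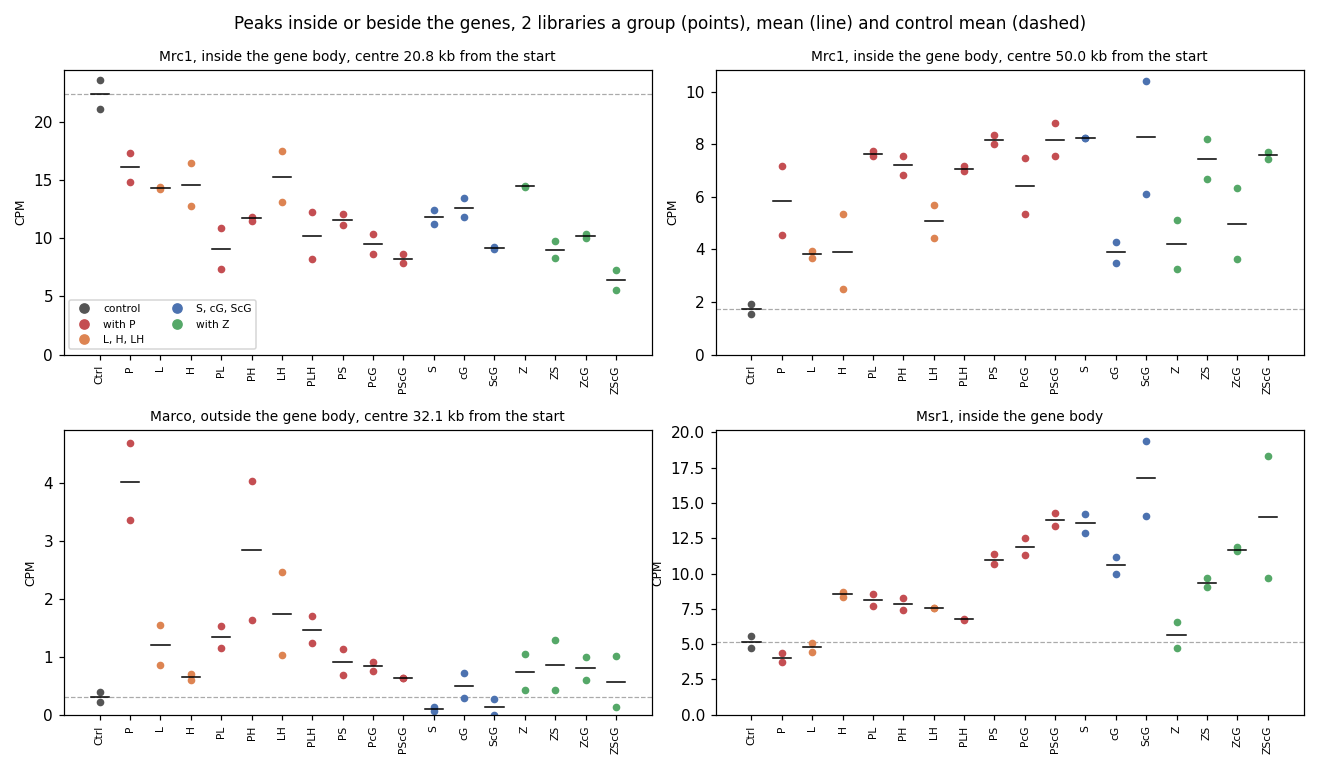
CPM in every library of a pair of Mrc1 peaks (top), the Marco peak 1006 bp past the gene end (bottom left) and the Msr1 peak with the lowest p (bottom right); points are libraries, solid lines group means and dashed lines the Ctrl mean. The Mrc1 peak at 20785 bp is highest in Ctrl and that at 49964 bp lowest in Ctrl, the Marco peak is highest with P and the Msr1 peak is high with S, cG and ScG.

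Fcgr1 had more higher than lower calls. Its start peak (chr3:96293212-96294325) read 9.29 and 8.97 CPM in Ctrl, 17.1 and 13.5 with L, 17.4 and 14.4 with LH, 15.1 and 11.1 with PL and 7.25 and 9.82 with P. It read 4.74 and 5.68 CPM with ScG, 6.88 and 5.01 with ZcG and 4.36 and 6.07 with ZScG. The libraries of L, LH and PL lay above both control libraries and those of ScG, ZcG and ZScG below them. It rose by 0.74 ± 0.201 with L (adjusted p 0.00283), 0.81 ± 0.201 with LH and 0.53 ± 0.207 with PL, and fell, at -0.81 ± 0.236 with ScG, -0.62 ± 0.237 with ZcG and -0.82 ± 0.245 with ZScG. The 3 groups that fell lie with Ctrl in the set of higher mitochondrial share, and the 3 that rose do not. All 6 calls held under total counts, and each ended when 1 library was left out: L without L 1 (0.57 to 0.9 over the fits), LH without LH 1 (0.65 to 0.93), PL without Ctrl 1, Ctrl 2 or PL 1 (0.28 to 0.75), ScG without ScG 1 (-0.94 to -0.68), ZcG without Ctrl 1, Ctrl 2 or ZcG 2 (-0.86 to -0.41) and ZScG without ZScG 1 (-1.06 to -0.59).

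Upstream of Fcgr1, the peak with the highest mean CPM (chr3:96300513-96301936, 6544 bp away) read 23.3 and 28.2 CPM in Ctrl and fell in ZS (18.4 and 17.6, -0.52 ± 0.141, ended without Ctrl 2 and under total counts at -0.33) and ZScG (16.1 and 15.9, -0.69 ± 0.148). A pair of peaks chosen after their values were seen rose more widely. The one 8429 bp upstream (chr3:96302398-96303101) read 8.09 and 6.27 CPM in Ctrl, 13.6 and 13.2 with L, 10.9 and 9.96 with S, 10.2 and 14.2 with cG and 4.81 and 5.63 with P, and rose in 9 stimulations, by 0.9 ± 0.205 with L. Only P was lower than both control libraries among these, at -0.45 ± 0.23, and it was not called. The one inside the gene (chr3:96287346-96287891) read 0.983 and 0.482 CPM in Ctrl and 3.55 and 5.53 with ZS, and rose in 12 stimulations, by 2.65 ± 0.487 with ZS. At both peaks every call held under total counts, but without Ctrl 2 the first kept only those in L and PH and the second ended in 9 of 12, keeping L, LH and ZS. Of the 9 Fcgr1 peaks, 6 were higher and 3 lower in at least 1 stimulation, 1 in both, and 1 was never called.

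At Fcgr2b the start gave no call, and a peak inside the gene rose. The start peak (chr1:170975468-170976352) read 3.61 and 4.82 CPM in Ctrl, 7.46 and 5.5 with PL and 2.15 and 3.13 with ZS. Its log2 fold changes lay between -0.67 ± 0.33 with ZS and 0.63 ± 0.289 with PL, and it passed edgeR's test in 0 of 17 stimulations, with 2 at an unadjusted p under 0.05, and DESeq2 gave 0 of 17 and 1 at that p. It passed the test across all groups (adjusted p 0.000583). Inside the gene, the peak with the lowest p (chr1:170972899-170973533, centre 3056 bp past the start) read 3.5 and 4.15 CPM in Ctrl, 6.56 and 11.2 with P, 8.04 and 11.8 with PL, 7.83 and 11.1 with PH and 9.59 and 10.6 with PLH. It read 5.69 and 6.95 CPM with S and 6.1 and 3.96 with H. It rose in 12 stimulations, by 1.39 ± 0.259 with PLH (adjusted p 4.06e-06) and 1.21 ± 0.263 with P. All 12 held under total counts. Leaving out 1 library kept the calls in PL, PH, PS, PcG and PLH and ended those in P (without P 2, 0.78 at the lowest), L, S, cG, LH, ScG and PScG (0.57 to 1.2). At Fcgr2b the peak of highest mean CPM (chr1:170952919-170953696) fell in H, ScG and ZS, at -0.6 to -0.71, and none of these calls held under total counts or when 1 library was left out. Of the 9 Fcgr2b peaks, 2 were higher and 4 lower in at least 1 stimulation and 3 were never called.

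At Fcgr3 the start fell in 3 stimulations, and 8 other peaks rose in at least 1. The start peak (chr1:171059045-171059715) read 12.5 and 10.0 CPM in Ctrl, 15.2 and 11.3 with LH, 11.1 and 12.1 with P, 5.48 and 6.17 with ZS and 6.26 and 6.62 with ZScG. It fell with ZS (-0.94 ± 0.221, adjusted p 0.000395), with ZScG (-0.8 ± 0.226) and with ScG (-0.59 ± 0.214). The ZScG call ended without Ctrl 1 (-0.95 to -0.64 over the fits), and that in ScG without Ctrl 1, ScG 1 or ScG 2 and under total counts (-0.51). A pair of long peaks overlap clusters of transfer RNA genes, whose near-identical copies make their counts uncertain. The first (chr1:171063717-171066257) lies over the higher-coordinate end of the gene span, upstream of the start peak. It read 23.6 and 30.6 CPM in Ctrl and 37.9 and 49.7 with P, and rose in 12 stimulations, by 0.69 ± 0.122 with P. Without Ctrl 1, 9 of its 12 calls ended, and those in P, H and ZScG stayed. The second (chr1:171071187-171073771, 5272 bp upstream) read 20.9 and 24.2 CPM in Ctrl and 30.5 and 41.0 with P, and rose in 6 stimulations, by 0.66 ± 0.13 with P, of which the calls in P and PLH held whichever library was left out. Of the Fcgr3 peaks, the first of this pair had the highest mean CPM and the second the lowest p. Of the 16 Fcgr3 peaks, 3 were lower in at least 1 stimulation and 5 were never called.

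Adding P to S, cG or H raised more member peaks than it lowered, as it did over all peaks, and the shares lay near the background. With P added to S, 4 member peaks rose and 0 fell (3.31% of members, against 2.44% and 0.492% of all peaks). Added to cG, P raised 9 and lowered 0 (7.44%, against 5.59% and 3.52%), and added to H it raised 8 and lowered 1 (6.61% and 0.826%, against 5.28% and 2.27%). Added to L it gave 1 in each direction (0.826%, against 0.765% and 0.362%), and added to ScG it raised 1 and lowered 3 (0.826% and 2.48%, against 2.11% and 2.42%). The Marco start was among the peaks that rose with P on S (1.36 ± 0.355, adjusted p 0.0111), on cG (1.72 ± 0.384, 0.000653) and on H (1.0 ± 0.318, 0.0312), and the difference on ScG was 1.16 ± 0.425 (0.101). Only the difference on cG held whichever library was left out (1.55 to 1.93). That on S ended without S 1, S 2 or PS 2 (1.08 to 1.56) and that on H without H 1, PH 1 or PH 2 (0.71 to 1.3). The Cd36 peak beside the start also rose with P on S (1.27 ± 0.285), on cG (1.12 ± 0.304) and on H (1.03 ± 0.313), each ending when 1 library was left out (0.79 to 1.51 over the fits). Apart from ScG, the groups compared in these differences all have the lower mitochondrial share, and under total counts P on ScG gave 11 higher and 1 lower, so that the direction there depends on the scaling.

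Read from P, adding S or cG lowered more member peaks than it raised. S on P lowered 22 member peaks and raised 4 (18.2% and 3.31%, against 8.78% and 9.36% of all peaks), and cG on P lowered 15 and raised 5 (12.4% and 4.13%, against 7.35% and 7.39%). Lower calls exceeded the background share in both, and under total counts the counts were 16 and 6 for S and 13 and 6 for cG. The mitochondrial share was 50.5% and 48.5% in the P libraries, 46.6% and 45.0% in PS and 44.5% and 45.7% in PcG. Both P libraries thus lay above those of PS and PcG, and the part of this share was not tested. At the Marco start S on P gave -1.58 ± 0.292 (adjusted p 8.01e-06) and cG on P -1.53 ± 0.295, and both held whichever library was left out. At the Mrc1 peak near Mir511 they gave -1.9 ± 0.39 and -1.79 ± 0.391, and at the Msr1 peak that rose with S and cG they gave 1.45 ± 0.216 and 1.56 ± 0.216. L on P lowered 10 and raised 4 (8.26% and 3.31%, against 4.29% and 4.17%), and H on P raised 2 and lowered 0 (1.65%, against 1.7% and 0.968%). The peaks raised by H on P were the Msr1 peak with the lowest p (0.96 ± 0.225) and the Fcgr1 peak 8429 bp upstream (1.37 ± 0.204).

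With TMM scaling, adding Z changed 7 member peaks on S, 3 on cG and 3 on ScG. On S it raised 6 peaks and lowered 1 (4.96% and 0.826%, against 1.52% and 1.0%), on cG it raised 1 and lowered 2 (0.826% and 1.65%, against 1.82% and 1.04%), and on ScG it raised 1 and lowered 2 (0.826% and 1.65%, against 0.324% and 0.448%). Of the 6 raised on S, 4 were at Fcgr3, among them the long peak over transfer RNA genes beyond the gene span, whose counts are uncertain. The Fcgr3 start stood at -0.57 ± 0.217 for Z on S and was not called. Under total counts Z on S instead gave 2 higher and 9 lower, so that direction depends on the scaling. Z on cG gave 1 higher and 20 lower under total counts, where cG and ZcG differ in mitochondrial share, and Z on ScG kept 1 and 2. The S libraries have mitochondrial shares of 47.1% and 48.7% and the ZS libraries 58.1% and 51.0%, so this comparison is not one of like shares either. ScG and ZScG both lie in the set of higher mitochondrial share. At the Cd36 peak with the highest mean CPM, Z on ScG gave -0.66 ± 0.127 (adjusted p 0.00092), which ended without ScG 1 (-0.7 to -0.62).

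Pairs were also compared with the sum of their 2 ligands on the log2 scale. A value above 0 means that the pair read higher than its separate log2 fold changes added up. ScG gave the most such departures, 12 above and 4 below the sum (9.92% and 3.31% of the members, against 6.92% and 7.52% of all peaks). Among the 12 were 6 peaks of Cd36 and 4 of Msr1, and the Cd36 peak past the gene end that was lower in all 17 stimulations departed most among those at Cd36 (3.48 ± 0.605, adjusted p 3.27e-06), where S and cG alone stood at -2.69 ± 0.363 and -3.5 ± 0.401. ScG is also the pair that lies with Ctrl in the set of higher mitochondrial share while S and cG do not. Under total counts its split turned to 4 above and 20 below, so the direction of these departures depends on the scaling. PL gave 3 above and 5 below (2.48% and 4.13%, against 2.57% and 4.18%), PH 3 and 1 (2.48% and 0.826%, against 0.471% and 1.08%) and LH 3 and 1 (against 2.26% and 2.62%). PS gave 4 and 3 (3.31% and 2.48%, against 1.68% and 2.9%), PcG 5 and 3 (4.13% and 2.48%, against 1.09% and 2.17%), ZS 4 and 0 (3.31%, against 0.826% and 2.6%) and ZcG 0 and 1 (0.826%, against 0.753% and 1.74%). Under total counts PL, PH, LH and ZcG had 0 above and 11, 4, 9 and 6 below, PS and PcG 3 above and 7 and 6 below, and ZS 4 above and 3 below.

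The start peaks of 6 genes and the Msr1 peak over its higher-coordinate end followed each other to differing degrees across the 18 group means of log2 CPM, which share libraries and depth. As a description, Pearson's r was 0.84 between Fcgr3 and Fcgr2b, 0.80 between Msr1 and Marco, 0.80 between Fcgr1 and Msr1, 0.62 between Mrc1 and Cd36 and -0.49 between Fcgr2b and Mrc1. Among 9674 genes with a start peak, those whose start followed each gene's peak with the lowest p most closely were Agtrap (r 0.903) and Unc119 (0.885) for Marco, Sp140 (0.894) and Slc39a2 (0.883) for Msr1 and Gsta3 (0.935) and Hsd11b1 (0.922) for Cd36. They were Sirpb1b (0.919) and Hal (0.914) for Mrc1, Gpr31b (0.849) and Arhgap25 (0.843) for Fcgr1 and Gm4606 (0.915) and Ago3 (0.912) for Fcgr2b. For Fcgr3 they were BC107364 (0.762) and Tex9 (0.663). The Fcgr3 peak used there is the long one over transfer RNA genes beyond the gene span, whose counts are uncertain.

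Other genes of uptake gave more higher than lower calls in all 17 stimulations, and in 16 under total counts (ZcG gave 24 and 27). Over 24 further genes for scavenger receptors, lectins of the mannose receptor family, receptors for apoptotic cells, Fc receptors and complement receptors, 258 peaks were tested in the same window. With S, 53 of them rose and 16 fell (20.5% and 6.2%, against 14.1% and 13.8% of all peaks, where the 7 genes had 6 and 25). The counts were 52 and 9 with cG (20.2% and 3.49%, against 11.6% each), 41 and 10 with P (15.9% and 3.88%, against 11.1% and 9.45%) and 61 and 28 with PScG (23.6% and 10.9%, against 19.0% and 18.1%). They were near even in ZcG with 28 and 26 (10.9% and 10.1%, against 11.4% and 10.2%) and ScG with 36 and 30 (14.0% and 11.6%, against 14.4% and 13.3%), and stood at 45 and 32 in ZS (17.4% and 12.4%, against 14.4% and 14.0%). The higher share exceeded that of all peaks in 14 stimulations and the lower share lay below it in 17. Their median log2 fold change with S was 0.18, against -0.335 over the 121 peaks of the 7 genes and 0.00409 over all peaks. Mertk, a receptor for dying cells, had 7 higher and 1 lower of 26 peaks in PLH, and its strongest rise there was at an upstream peak (chr2:128693398-128693962) that read 0.546 and 0.482 CPM in Ctrl and 4.76 and 5.24 in PLH (3.26 ± 0.457). Lrp1, a large scavenger receptor of the lipoprotein receptor family, held the strongest rise in ZScG, at an intragenic peak (chr10:127557734-127558208). That peak read 0.328 and 0.193 CPM in Ctrl, from 5 counts in all, and 3.46 and 4.55 in ZScG (3.91 ± 0.633, imprecise at so few control counts). In PScG the strongest rise was at a peak inside Itgav, an integrin subunit used in the uptake of dying cells (chr2:83760118-83760470). It read 2.33 and 2.28 CPM against 0.109 and 0.193 in Ctrl, whose 3 counts are too few for a fold. The strongest falls were upstream of Itgav in PLH (chr2:83714675-83715131, -2.08 ± 0.347), inside Itgb2, the shared beta chain of the integrin complement receptors, in PScG (chr10:77558083-77558585, -1.94 ± 0.51), and inside Ly75, a lectin of the mannose receptor family, in ZScG (chr2:60298248-60298639, -2.21 ± 0.561). The difference between both lists was not tested.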

How the data were processed

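ATAC-seq was analysed in 36 libraries of mouse bone marrow-derived dendritic cells, 2 in each of 18 groups, from the authors' deposited table of read counts per peak over all libraries. Per the submitters' processing notes the tools included Bowtie2 2.2.9, MACS2, bedtools and featureCounts with mm10. The peak that spans the mitochondrial genome was left out, and 286 peaks failed edgeR's filterByExpr (minimum count 10), which left 119464. TMM scaling preceded a fit over all groups in edgeR 4.0.16 in R 4.3.3 (quasi-likelihood, trended dispersion, robust, 18 residual degrees of freedom). Benjamini-Hochberg adjustment ran over all tested peaks in each of 37 contrasts and the test across groups, at 0.05. The code was tested on simulated data.

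The peaks named are, for each gene, that over its start, that with the highest mean CPM and that with the lowest p across groups. Others are marked as chosen after their values were seen. The genes and lists were chosen with earlier results of these data known. Gene positions, promoters and names come from RefSeq tables. A gene of the marker lists is not reported here. Intervals and floors cover counting error only. Alternatives were RLE size factors, total counts (outside the mitochondrial genome, without TMM) and offsets that depend on abundance (limma 3.58.1). Others were DESeq2 1.42.0, no filter, the mitochondrial peak kept, a replicate block and leaving out each library. The last leaves 1 library in a group that is then assumed to vary like the others.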

Additional observations from a re-analysis of the deposited data

Results flagged for a closer look

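Departures of a pair from the sum of its 2 ligands on the log2 scale were tested as a difference between effects, with edgeR's quasi-likelihood test and Benjamini-Hochberg adjustment over all tested peaks. ScG had 16 member peaks that passed, PL 8, PcG 8, PS 7, PH 4, LH 4, ZS 4 and ZcG 1. In the same order, the shares of all tested peaks that passed were 14.4%, 6.75%, 3.27%, 4.59%, 1.55%, 4.88%, 3.43% and 2.49%.

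At the start of Cd36 the departure was 1.63 for PS and 1.63 for ScG, so both pairs had fallen less than the sum. That for ScG held whichever library was left out (1.36 to 1.98) and ended under total counts (1.0), and that for PS ended without S 2 (1.39 to 1.91). At the other Cd36 peaks it was 0.57 for PS at the peak with the highest mean CPM, which ended under total counts (0.29), and 1.13 for ScG at the peak with the lowest p, which ended under total counts (0.5).

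The start of Marco departed by 2.55 for ScG, from 0.372 and 2.08 CPM in the ScG libraries, and this ended without ScG 2 (0.92 to 3.37 over the fits). At Msr1 the peak with the lowest p departed by 1.10 for PL and that with the highest mean CPM by 0.75 for ScG. Both ended under total counts (0.67 and 0.13).

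The long peaks at Fcgr3 that overlap transfer RNA genes rose less in pairs than the sum. The one over the higher-coordinate end of the gene span departed by -0.85 in PS, -0.80 in PH, -0.70 in PcG, -0.69 in LH and -0.60 in PL. Of these, that in PS held whichever library was left out. The one beyond the gene span departed by -0.67 for PL, -0.58 for PS and -0.86 for PcG, each ending without P 2. The Fcgr1 peak with the highest mean CPM departed by -0.52 for ScG, which ended without Ctrl 1, S 1, cG 2, ScG 1 or ScG 2.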

How the results depend on the processing

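Of the log2 fold changes of the named peaks against Ctrl, 489 kept their direction and side of the threshold with RLE size factors, 3 came to pass and 1 no longer did. With total counts 407 kept them, 46 came to pass, 39 no longer passed and 1 reversed, and over the fits without 1 library 1705 kept them, 18 came to pass and 249 no longer passed. Total counts gave 38 called member peaks in L, 38 in LH, 9 departures from the sum in LH, 7 in ZS and 6 in ZcG, 1 call for P on L, 12 for P on ScG, 11 for Z on S and 21 for Z on cG. They also turned the Fcgr3 peak over transfer RNA genes beyond the gene span with S from -0.01 to 0.35. Abundance-dependent offsets gave 2 departures in ZcG. DESeq2 gave 5 departures in PL, 5 in PcG and 0 in ZcG (12 at an unadjusted p under 0.05, against 14 and 1 call in edgeR), 2 calls for P on S and 9 for L on P. The causes were not tested.

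Leaving out 1 library gave 14 to 19 calls in P, 13 to 19 in L, 5 to 9 in H, 20 to 26 in S, 19 to 26 in cG and 2 to 4 in Z. It gave 21 to 25 in PL, 18 to 23 in PH, 13 to 17 in LH, 22 to 28 in PS, 20 to 26 in PcG, 23 to 32 in ScG, 23 to 33 in ZS and 21 to 24 in ZcG, and 22 to 29 in PLH, 26 to 33 in PScG and 25 to 35 in ZScG. Departures from the sum were 3 to 8 in PL, 1 to 3 in PH, 1 to 5 in LH, 5 to 7 in PS, 2 to 7 in PcG, 8 to 15 in ScG, 1 to 5 in ZS and 0 to 1 in ZcG. Calls for P added were 0 to 1 on L, 2 to 5 on H, 1 to 2 on S, 4 to 7 on cG and 0 to 4 on ScG. Those for Z added were 0 to 3 on S, 0 to 2 on cG and 0 to 2 on ScG, and those on P were 5 to 10 for L, 1 to 2 for H, 14 to 20 for S and 10 to 14 for cG. Each such fit has fewer libraries than the full one.

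No pairing of the libraries by replicate number was detected, and the labels do not say whether same-numbered libraries belong together. Over 153 pairs of groups, the correlation of same-numbered deviations from the group means ran from -0.04 to 0.03. With the replicate block, H had 16 calls against 17 and PLH 39 against 41, and no count moved by over 1.5 times.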
